A study of Mus musculus with 32 samples.

Results

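Transcripts of 36 genes of glycolysis and the hypoxia response were measured in 32 primary mouse melanomas. The genes were chosen by name, as enzymes and transporters of glucose use and as textbook targets or parts of the hypoxia-inducible factor (HIF) pathway. All 36 were found among the 50600 genes of the deposited tables, and all 36 passed the filter on low counts, which kept 17717 genes. The tumours formed 4 groups of 8. Every mouse carried the Tyr::NrasQ61K oncogene, 1 lost copy of Cdkn2a and both copies of Cdh1 with loxP sites, and was untreated as far as the labels say. Ecad tumours had no Cre and kept Cdh1, which encodes the cell adhesion molecule E-cadherin. In ΔEcad tumours a Cre under the tyrosinase promoter (Tyr::CreA in the methods of the study, although the label of these tumours reads Tyr::NRAS/° in its place) deletes Cdh1 in melanocytes, so other cells of the same tumour keep the gene. Each genotype was sampled in males and females on a C57BL/6J background. The labels give no age.

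Glycolysis splits glucose into pyruvate, and lactate dehydrogenase turns pyruvate into lactate when the pathway runs faster than mitochondria can use its product. When oxygen falls, the prolyl hydroxylases stop marking the HIF alpha subunits for destruction, HIF binds a short DNA word near its targets, and genes of glucose uptake, glycolysis, acid export, angiogenesis and mitophagy are transcribed. HIF alpha subunits are regulated mainly as proteins, so the RNA of Hif1a or Epas1 is not a measure of their activity. Melanomas are known for high rates of glycolysis and for hypoxic regions.

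The HIF-binding word is (A/G)CGTG, and its presence before the start of the genes is shown first. Many textbook targets of HIF were established through this word, so its share among these genes is a description and is not independent of how they were chosen. RefSeq promoters (GRCm38.p6) were available for 34 of the 36 genes, and Ndrg1 and Epas1 were not matched. In the 250 bases before any listed start, ACGTG or GCGTG on either strand occurred in 30 of the 34 genes (88.2%), against 41.5% of 27025 genes in the same table. ACGTG alone occurred in 20 (58.8%), against 18.5% of all genes, and the palindrome CACGTG, each copy of which also holds ACGTG on both strands, in 4 (11.8%), against 6.86%. The 27025 genes were not limited to those that passed the filter on low counts. Neither the number of listed starts per gene nor base composition was matched. A match describes letters and is not a binding site. The 4 windows below are printed, with the words in capitals, because Pgk1 and Ldha are enzymes that varied together between tumours, Egln3 is an oxygen sensor that is itself a HIF target, and Car12 had the largest differences between groups and no such word in its window.
Pgk1: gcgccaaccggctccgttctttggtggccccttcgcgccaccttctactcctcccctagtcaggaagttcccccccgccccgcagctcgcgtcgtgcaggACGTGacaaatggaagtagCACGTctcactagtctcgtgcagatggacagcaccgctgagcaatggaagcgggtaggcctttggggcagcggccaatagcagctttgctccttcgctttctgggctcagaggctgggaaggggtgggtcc
Ldha: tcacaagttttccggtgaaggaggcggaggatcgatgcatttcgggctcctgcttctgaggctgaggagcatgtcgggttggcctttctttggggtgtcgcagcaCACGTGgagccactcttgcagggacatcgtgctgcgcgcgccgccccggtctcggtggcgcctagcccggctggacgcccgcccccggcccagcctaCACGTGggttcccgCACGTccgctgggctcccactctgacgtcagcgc
Egln3: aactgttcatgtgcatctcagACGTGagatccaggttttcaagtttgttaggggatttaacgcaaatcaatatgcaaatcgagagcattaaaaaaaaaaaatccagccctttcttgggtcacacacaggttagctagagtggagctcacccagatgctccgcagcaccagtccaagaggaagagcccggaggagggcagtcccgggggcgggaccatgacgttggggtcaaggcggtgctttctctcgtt
Car12: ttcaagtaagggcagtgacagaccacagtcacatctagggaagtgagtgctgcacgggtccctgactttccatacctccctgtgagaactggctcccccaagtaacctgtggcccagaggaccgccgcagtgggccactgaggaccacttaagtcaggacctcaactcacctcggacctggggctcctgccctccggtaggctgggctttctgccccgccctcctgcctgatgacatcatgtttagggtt
Pgk1 lies on the plus strand, and its window was chrX:106186850-106187099, with words 150 and 131 bases before the start. Ldha was printed from chr7:46845554-46845803 on the plus strand, where 2 palindromes and 1 further word make up 5 matches over both strands, and it lies inside the longer GENCODE gene, before the RefSeq start used here. For Egln3 the window was chr12:54203875-54204124 on the minus strand, with 1 word 229 bases before the start. Car12 was printed from chr9:66713436-66713685 on the plus strand.

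Levels are given as TPM, a unit that corrects each gene for its length and each tumour for its total. Total counts per tumour were between 24036333 and 63923086. Some libraries stand apart from the rest. The library labelled ΔEcad male 2 had 0 counts over 4 genes of the Y chromosome, against 1459 to 8800 in the other 15 males. ΔEcad male 7 had 31.78 TPM over 8 melanocytic markers, where the other 31 tumours had at least 5885 TPM. ΔEcad female 3 had 0 TPM over 5 red blood cell genes and 8.96 TPM over 10 endothelial markers. In ΔEcad male 1, ribosomal protein genes took 26.6% of all TPM, against 4.86% to 14.7% elsewhere. All were kept under their labels. EdgeR called none of the 36 genes in any comparison without ΔEcad male 2, without ΔEcad male 1, or without ΔEcad male 2, ΔEcad male 7 and ΔEcad female 3 together. Cdh1, the gene deleted in melanocytes of ΔEcad tumours by design, ranged from 25.0 to 281.9 TPM (median 144.6) in Ecad males and from 0.79 to 65.2 TPM (median 3.29) in ΔEcad males. In females it ranged from 2.16 to 151.2 TPM (median 30.6) in Ecad and from 0.17 to 143.2 TPM (median 46.7) in ΔEcad tumours, so whole-tumour Cdh1 RNA does not check the genotype labels of the females (log2 difference -0.00, SE 0.87, edgeR adjusted p 0.999). In males the log2 difference was -3.33 (SE 0.96, edgeR adjusted p 0.365), which was not called either. All 10 keratinocyte markers were also lower in ΔEcad than Ecad males (median log2 difference -1.41), and their part in the Cdh1 value was not tested. In bulk tissue, fewer cells of a type and less RNA per cell cannot be told apart.

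The enzymes of glycolysis were among the most abundant transcripts of these melanomas. The 36 genes together took between 0.278% (ΔEcad male 1) and 2.29% (ΔEcad male 6) of all TPM, with a median of 0.971%. Of the 36, 16 had a median level above the 90th percentile of the 17717 genes. The highest medians over all tumours were those of Aldoa, the main aldolase, at 1657 TPM, Gapdh, the dehydrogenase that makes the first NADH of the pathway, at 1561 TPM, and Pkm, the last enzyme before pyruvate, at 981.1 TPM. Lactate dehydrogenase A (Ldha, 829.6 TPM), the enolase Eno1 (765.9 TPM) and triosephosphate isomerase (Tpi1, 717.5 TPM) followed. At the low end were the carbonic anhydrases Car12 (1.67 TPM) and Car9 (3.94 TPM), both membrane enzymes that help to buffer acid outside the cell, and Pfkfb4 (7.54 TPM), an enzyme that sets fructose 2,6-bisphosphate.

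Glucose entry depends on the transporter Slc2a1 (GLUT1) and on hexokinases. Slc2a1 ranged from 65.4 to 245.8 TPM (median 99.3) for Ecad males, 48.6 to 334.7 TPM (median 67.4) for Ecad females, 23.96 to 331.1 TPM (median 84.2) for ΔEcad males and 44.1 to 191.6 TPM (median 92.5) for ΔEcad females. The 4 ranges overlap over most of their width. Hk1, the housekeeping hexokinase, had group medians of 113.2 to 197.0 TPM. Hk2, the inducible and insulin-responsive hexokinase of muscle and many tumours, had a median of 42.8 TPM in Ecad males (12.8 to 88.8 TPM) and 12.6 TPM in ΔEcad males (2.43 to 58.5 TPM). In 4 ΔEcad males Hk2 lay below every Ecad male, and the others lay inside the Ecad range, as the plot of levels by tumour shows. In females Hk2 had medians of 25.7 TPM (8.75 to 142.3 TPM) in Ecad and 32.3 TPM (10.5 to 55.4 TPM) in ΔEcad tumours.

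**Figure D1:**
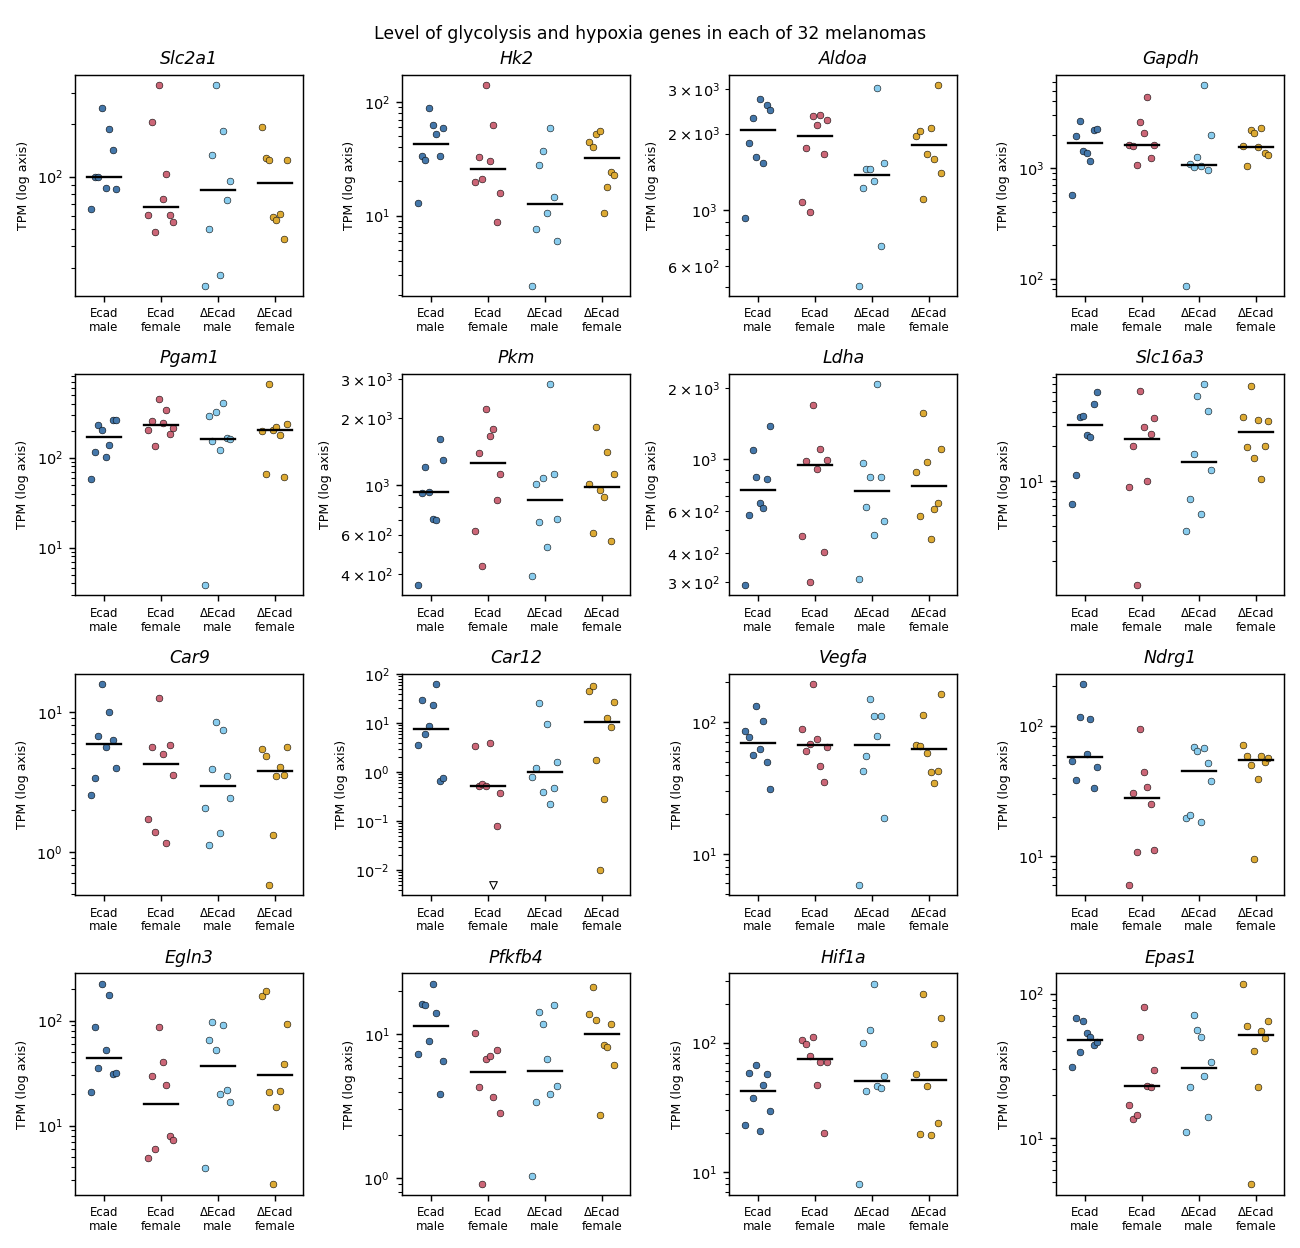
Level of 16 of the 36 genes in each tumour, in TPM on log axes with a separate scale in each panel, by group (each dot is 1 tumour and the bar is the median of 8). The groups overlap in every panel, Car12 is spread most widely, and its open triangle at the foot of the axis stands for 0 TPM in Ecad female 6.

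In upper glycolysis, glucose-6-phosphate isomerase (Gpi1) was at 280.6 to 731.8 TPM (median 370.0) in Ecad males and 512.1 to 832.5 TPM (median 693.2) in Ecad females. The lowest Ecad female was above the Ecad male median, though the ranges overlap. ΔEcad tumours had Gpi1 medians of 373.2 TPM in males (195.4 to 1179 TPM) and 348.7 TPM in females (225.9 to 978.2 TPM). Phosphofructokinase, which commits glucose to the pathway, was represented by Pfkl, with group medians of 98.7 to 155.9 TPM, and Pfkp, with 29.0 to 69.0 TPM. Its activator is made by Pfkfb3 (group medians 30.1 to 48.2 TPM) and Pfkfb4. Pfkfb4 had medians of 11.51 TPM for Ecad males (3.85 to 22.6 TPM), 5.50 TPM for Ecad females (0.90 to 10.2 TPM), 5.57 TPM for ΔEcad males (1.03 to 16.1 TPM) and 10.1 TPM for ΔEcad females (2.74 to 21.5 TPM). Aldoc, the brain-type aldolase, stayed at group medians of 10.7 to 17.9 TPM, and Aldoa at 1373 to 2070 TPM.

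The enzymes of lower glycolysis differed more between tumours than between groups. Gapdh had group medians of 1060 to 1674 TPM, while single tumours reached from 86.7 TPM in ΔEcad male 1 to 5665 TPM in ΔEcad male 6, a 65.3-fold range. Pgam1, the phosphoglycerate mutase, had group medians of 163.4 to 229.5 TPM and a 171-fold range, from 3.83 TPM in ΔEcad male 1 to 655.0 TPM in ΔEcad female 3. ΔEcad male 1 had the lowest value of 16 of the 36 genes, and ΔEcad male 6 and Ecad female 4 the highest of 9 and 8. For phosphoglycerate kinase (Pgk1) the group medians were 405.6 to 684.7 TPM, for Eno1 649.9 to 1104 TPM and for Pkm 856.2 to 1256 TPM. The neuronal enolase Eno2 was at 17.8 to 41.0 TPM.

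Among genes for the fates of pyruvate, lactate and acid, Ldha had group medians of 729.9 to 946.1 TPM. Pdk1, the kinase that keeps pyruvate out of the citric acid cycle, had medians of 16.02 to 21.42 TPM, and Slc16a3 (MCT4), which exports lactate, 14.7 to 30.5 TPM. Car9, a classical marker of hypoxic tumour cells, had medians of 2.97 to 5.92 TPM and a highest value of 15.9 TPM in Ecad male 4. Car12 stood apart from the other 35 genes by its spread. It ranged from 0.66 to 63.4 TPM (median 7.47) for Ecad males, 0 to 3.98 TPM (median 0.51) for Ecad females, 0.22 to 25.2 TPM (median 0.99) for ΔEcad males and 0.01 to 58.6 TPM (median 10.7) for ΔEcad females. The 0 TPM was 0 counts in Ecad female 6, of a total of 40421712, which allows up to 3 counts and covers counting error only.

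The secreted and stress targets included Vegfa, the main growth factor of blood vessels, with group medians of 62.3 to 69.4 TPM, and adrenomedullin (Adm), a vasodilator peptide, with 199.7 to 377.7 TPM. Ndrg1, a stress gene strongly induced by hypoxia, ranged from 33.3 to 208.5 TPM (median 57.2) for Ecad males, 6.06 to 93.9 TPM (median 28.0) for Ecad females, 18.3 to 68.1 TPM (median 44.7) for ΔEcad males and 9.56 to 70.5 TPM (median 54.8) for ΔEcad females. In 5 Ecad females Ndrg1 lay below every Ecad male. Bnip3, a receptor for the removal of mitochondria, had medians of 62.9 to 101.3 TPM, and Ankrd37, a small HIF target, 11.03 to 15.02 TPM. Ero1l, an oxidase of protein folding in the endoplasmic reticulum, reached 1165 TPM in Ecad female 4, against group medians of 59.6 to 130.4 TPM. The collagen prolyl hydroxylases had medians of 52.9 to 79.8 TPM (P4ha1) and 8.04 to 9.86 TPM (P4ha2), and ΔEcad female 3 had the highest value of both, 435.3 and 136.5 TPM. That tumour also had the highest summed level of 8 fibroblast markers, 9541 TPM. By the mean log2 CPM of the same 8 markers it was not the highest, with 7.75 beside 9.62 in ΔEcad male 7. The MYC antagonist Mxi1 had close group medians (29.1 to 35.7 TPM), while those of the histone demethylase Kdm3a ran from 27.3 TPM in ΔEcad males to 50.7 TPM in Ecad females.

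Of the oxygen-sensing genes, Egln1 (PHD2), the main prolyl hydroxylase, had group medians of 100.4 to 120.9 TPM. Egln3 (PHD3) ranged from 20.7 to 225.5 TPM (median 44.0) for Ecad males, 4.94 to 86.0 TPM (median 16.03) for Ecad females, 3.91 to 97.1 TPM (median 37.2) for ΔEcad males and 2.74 to 192.9 TPM (median 30.2) for ΔEcad females. Hif1a, the broadly expressed HIF subunit, was at 20.7 to 66.7 TPM (median 42.0) in Ecad males and 7.98 to 286.3 TPM (median 50.7) in ΔEcad males. Ecad females had 19.8 to 110.9 TPM (median 75.2) and ΔEcad females 19.1 to 236.8 TPM (median 51.4). Epas1 (HIF2A), the subunit typical of endothelium, had medians of 48.1 TPM (31.2 to 68.1 TPM) in Ecad males and 22.8 TPM (13.6 to 81.0 TPM) in Ecad females. In ΔEcad tumours its medians were 30.4 TPM (11.2 to 71.2 TPM) in males and 51.9 TPM (4.80 to 117.3 TPM) in females. The ranges of the compared groups overlapped for every one of the 36 genes in all 4 comparisons between groups. Among all 17717 genes, between 0.00564% and 0.124% had ranges that did not overlap in these comparisons, so few genes of any kind were separated.

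The first comparison asked what differed between ΔEcad and Ecad tumours of females. No gene of the 36 was called at an edgeR adjusted p under 0.05 with an absolute log2 fold change over 1, where 1.20% of all genes tested were (213 genes). At an unadjusted p under 0.05 there were 3 of the 36, where 15.3% of all genes were. DESeq2 called 1 of the 36, Car12, where it called 7.23% of all genes (1281), and limma voom called none of the 36 and 0.00564% of all (1 gene). Car12 was higher in ΔEcad females by 4.00 on the log2 scale (SE 1.24, 95% interval 1.48 to 6.53, edgeR adjusted p 0.0777). Pfkfb4 was 0.99 higher (SE 0.41, adjusted p 0.213) and Egln3 1.40 higher (SE 0.70, adjusted p 0.344). In the other direction, Kdm3a differed by -0.76 (SE 0.36, adjusted p 0.294), Adm by -0.99 (SE 0.52, adjusted p 0.364) and Ero1l by -1.29 (SE 0.67, adjusted p 0.366). Single tumours carried a large part of 2 of these values: without Ecad female 4, the tumour with 1165 TPM of Ero1l, Ero1l differed by -0.49, and without Ecad female 3 Kdm3a differed by -0.37. Log2 fold changes were negative for 26 of the 36 genes, and their median was -0.25, beside -0.02 over all genes tested.

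Among males, the same question gave no called gene of the 36 and none among all genes (0.00%), in edgeR. Unadjusted p values under 0.05 numbered 2 of the 36, against 10.2% of all genes (1814). DESeq2 called none of the 36 and 0.119% of all genes (21), and limma voom called no gene at all (0.00%). Hif1a was 1.13 higher on the log2 scale in ΔEcad males (SE 0.47, 95% interval 0.17 to 2.09, edgeR adjusted p 0.446). P4ha1 was 0.66 higher (SE 0.42, adjusted p 0.573) and Pfkfb3 0.91 higher (SE 0.64, adjusted p 0.612). Hk2 differed by -1.08 (SE 0.52, adjusted p 0.484), Ndrg1 by -0.79 (SE 0.45, adjusted p 0.538) and Eno2 by -0.73 (SE 0.46, adjusted p 0.573). The signs were split evenly, 18 in each direction, and the median of 0.05 stood beside 0.11 over all genes. Without the library labelled ΔEcad male 2, Hif1a differed by 1.02 (edgeR adjusted p 0.648) and Hk2 by -0.98 (adjusted p 0.673). Hif1a differed by 0.73 without ΔEcad male 5, and Pfkfb3 by 0.52 without that tumour and also by 0.52 without ΔEcad male 4. Ndrg1 differed by -0.36 without Ecad male 4, and Eno2 by -1.16 without ΔEcad male 6.

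Between female and male Ecad tumours, edgeR called none of the 36, with 0.0508% of all genes called (9 genes). At an unadjusted p under 0.05 there were 4 of the 36, all lower in females, against 16.0% of all genes. DESeq2 called 2 of the 36, Car12 and Ndrg1, where it called 5.77% of all genes (1023), and limma voom called none of the 36 and 0.649% of all (115 genes). Ndrg1 differed by -1.43 on the log2 scale (SE 0.45, 95% interval -2.35 to -0.51, edgeR adjusted p 0.119), Car12 by -3.82 (SE 1.23, adjusted p 0.124), Pfkfb4 by -1.10 (SE 0.41, adjusted p 0.176) and Egln3 by -1.73 (SE 0.71, adjusted p 0.216). Gpi1 was 0.69 higher in females (SE 0.36, adjusted p 0.342), Pfkl 0.67 higher (SE 0.36, adjusted p 0.369) and Hif1a 0.86 higher (SE 0.47, adjusted p 0.376). Positive values were found for 23 of the 36, and the median of 0.19 stood beside 0.05 over all genes. Each group enters more than 1 comparison, as the Ecad females do here and in the female genotype comparison, so values are not independent between comparisons. Ecad male 4 had the highest Ndrg1 and Egln3 of its group, and without it the differences were -0.95 for Ndrg1 and -1.15 for Egln3.

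Between female and male ΔEcad tumours, none of the 36 was called in edgeR, DESeq2 or limma voom, with 0.0395% of all genes called in edgeR (7 genes), 0.135% in DESeq2 (24) and 0.0339% in voom (6). None of the 36 had an unadjusted p under 0.05 in edgeR, where 8.81% of all genes did. P4ha2 was 1.14 higher in females (SE 0.61, edgeR adjusted p 0.599), Car12 1.84 higher (SE 1.13, adjusted p 0.653) and Hk2 0.57 higher (SE 0.52, adjusted p 0.776). Adm differed by -0.87 (SE 0.51, adjusted p 0.638), Tpi1 by -0.54 (SE 0.37, adjusted p 0.676) and Bnip3 by -0.57 (SE 0.41, adjusted p 0.700). Each of these values moved by more than 1.5 times when 1 tumour was left out. Without ΔEcad female 3, the tumour with 136.5 TPM of P4ha2, P4ha2 turned to -0.20. Without ΔEcad male 6, the difference was -0.09 for Tpi1, -0.07 for Bnip3, -0.56 for Adm and 1.17 for Hk2. Without ΔEcad male 2 it was -0.55 for Adm, without ΔEcad female 4 it was 0.37 for Hk2, and without ΔEcad male 3 it was 3.03 for Car12. The median was -0.18, beside -0.06 over all genes.

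The interaction asked whether the genotype difference of females was unlike that of males. EdgeR called none of the 36 and none of all genes (0.00%). Unadjusted p values under 0.05 numbered 5 of the 36, against 17.7% of all genes (3131). DESeq2 called Car12 alone among the 36, where it called 6.91% of all genes (1225), and limma voom called no gene. For Car12 the genotype difference in females exceeded that in males by 5.66 on the log2 scale (SE 1.66, 95% interval 2.27 to 9.04, edgeR adjusted p 0.0662). For Pfkfb4 it exceeded it by 1.53 (SE 0.58, adjusted p 0.148), and for Ndrg1 by 1.40 (SE 0.63, adjusted p 0.234). Adm had an interaction of -1.57 (SE 0.73, adjusted p 0.249), Pfkl of -1.04 (SE 0.51, adjusted p 0.285) and Gpi1 of -1.01 (SE 0.50, adjusted p 0.293). The median over the 36 was -0.39, beside -0.16 over all genes. The 95% intervals were wide, as the plot of differences shows: they reached a log2 difference of 1 in either direction for 29 of the 36 genes in the female genotype comparison and for 28 in that of males.

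**Figure D2:**
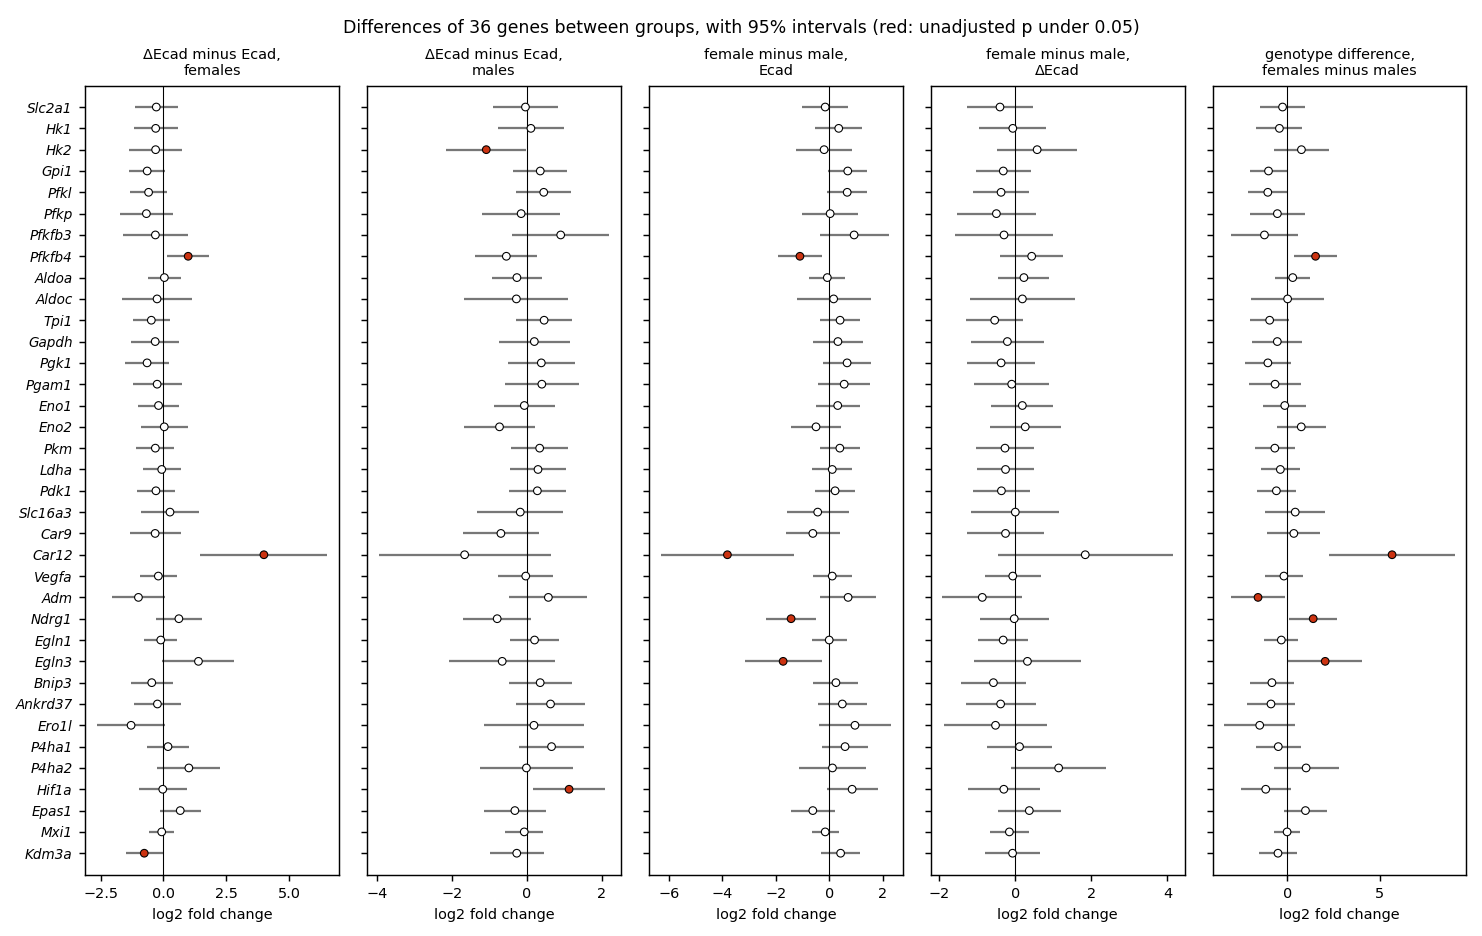
Log2 fold change (points) and 95% interval (bars) of each of the 36 genes in the 5 comparisons, with red points at an unadjusted p under 0.05. Car12 lies farthest from 0 of the 36 genes in all 5 comparisons, and no gene passed the adjusted threshold.

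Car12 varied with markers of skin epithelium. The summed level of 10 keratinocyte markers had medians of 6586 TPM (9.04 to 31190 TPM) for Ecad males, 12.25 TPM (5.64 to 2439 TPM) for Ecad females, 688.4 TPM (19.8 to 20350 TPM) for ΔEcad males and 7885 TPM for ΔEcad females (9.59 to 49250 TPM). This is the same order of groups at the ends as for Car12, lowest in Ecad females and highest in ΔEcad females. Krt5, a keratin of basal keratinocytes, was at 0 TPM in the lowest tumour of each group. Across 32 tumours Car12 correlated with Krt5 (Pearson r = 0.801, Spearman rho = 0.847, both with a permutation p of 1e-05, the smallest that 100000 permutations give, and both adjusted p 3.33e-05 over 10 relations). Within groups r was 0.783 for Ecad males, 0.617 for Ecad females, 0.541 for ΔEcad males and 0.884 for ΔEcad females, and it was 0.785 once the 2 tumours with the most extreme Car12 were left out. With keratinocyte and melanocytic scores as covariates, the Car12 difference in females was 0.49 (SE 0.97, edgeR adjusted p 0.955), that between Ecad sexes -0.38 (SE 0.97, adjusted p 1.00) and the interaction 0.93 (SE 1.38, adjusted p 0.895). Under the same covariates Egln3 differed by -0.02 in females (SE 0.88) and by -0.37 between Ecad sexes (SE 0.83), Ndrg1 between Ecad sexes by -1.20 (SE 0.57) and Hif1a in males by 1.13 (SE 0.49). The melanocytic score, a mean log2 CPM of the markers, was 0.54 in ΔEcad male 7 and at least 7.95 in the other 31 tumours. This covariate therefore rests largely on 1 tumour. What part skin cells have in these differences was not tested.

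The other cell type lists add the following. Endothelial markers (10 genes) had summed medians of 208.1 TPM for Ecad males, 122.6 TPM for Ecad females, 218.4 TPM for ΔEcad males and 228.7 TPM for ΔEcad females, with the lowest Ecad value at 58.7 TPM. Epas1 followed Pecam1, an adhesion protein of endothelium, across 32 tumours (r = 0.818, rho = 0.821, permutation p of 1e-05 each, adjusted p 3.33e-05), with r between 0.545 and 0.970 within groups and 0.794 without the 2 farthest tumours. Macrophage medians were 828.8 TPM in Ecad females and 1302 to 1910 TPM elsewhere, and skeletal muscle medians 15.9 TPM in Ecad females and 396.1 to 2661 TPM elsewhere. Adipocyte markers (6 genes) had summed medians of 1024 TPM for Ecad males, 50.8 TPM for Ecad females, 332.9 TPM for ΔEcad males and 258.3 TPM for ΔEcad females (3.34 to 6548 TPM). All 6 had an unadjusted p under 0.05 in the female genotype comparison (median log2 difference 3.96, smallest edgeR adjusted p 0.0572), between Ecad sexes (median -3.44, smallest adjusted p 0.163) and in the interaction (median 5.68, smallest adjusted p 0.0847). Car12 also had its largest differences in these comparisons. Between male genotypes the adipocyte median was -1.42, beside -1.655 for Car12, and between ΔEcad sexes it was 1.98, beside 1.84. None of the 6 had an unadjusted p under 0.05 in either. In females the 8 fibroblast markers all had positive genotype differences (median 1.31, 4 at an unadjusted p under 0.05) and the 8 melanocytic markers all had negative ones (median -0.93, 1 at an unadjusted p under 0.05). Keratinocyte markers (10 genes) had median log2 differences of 5.25 in females, -4.83 between Ecad sexes and 6.47 in the interaction. Of the 10, 9, 9 and 10 had an unadjusted p under 0.05 there (smallest edgeR adjusted p 0.0686, 0.112 and 0.0592). Skeletal muscle markers (8 genes) had medians of 2.48, -2.26 and 5.4, with 2, 1 and 4 at an unadjusted p under 0.05. What part these cells have in the differences of the 36 genes was not tested. Proliferation markers had medians of 125.5 to 174.8 TPM. None of the marker genes of any list was called in any comparison, where at most 1.20% of all genes were. For Hk2, which muscle also expresses, no correlation was detected with the muscle actin Acta1 (r = 0.105, permutation p 0.570, adjusted p 0.633). Within groups r was 0.544 for Ecad males, 0.009 for Ecad females, 0.157 for ΔEcad males and -0.148 for ΔEcad females. Between male genotypes all 8 muscle markers were lower in ΔEcad tumours (median -2.58), 1 of them at an unadjusted p under 0.05. The part of muscle in the Hk2 values was not tested.

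**Figure D3:**
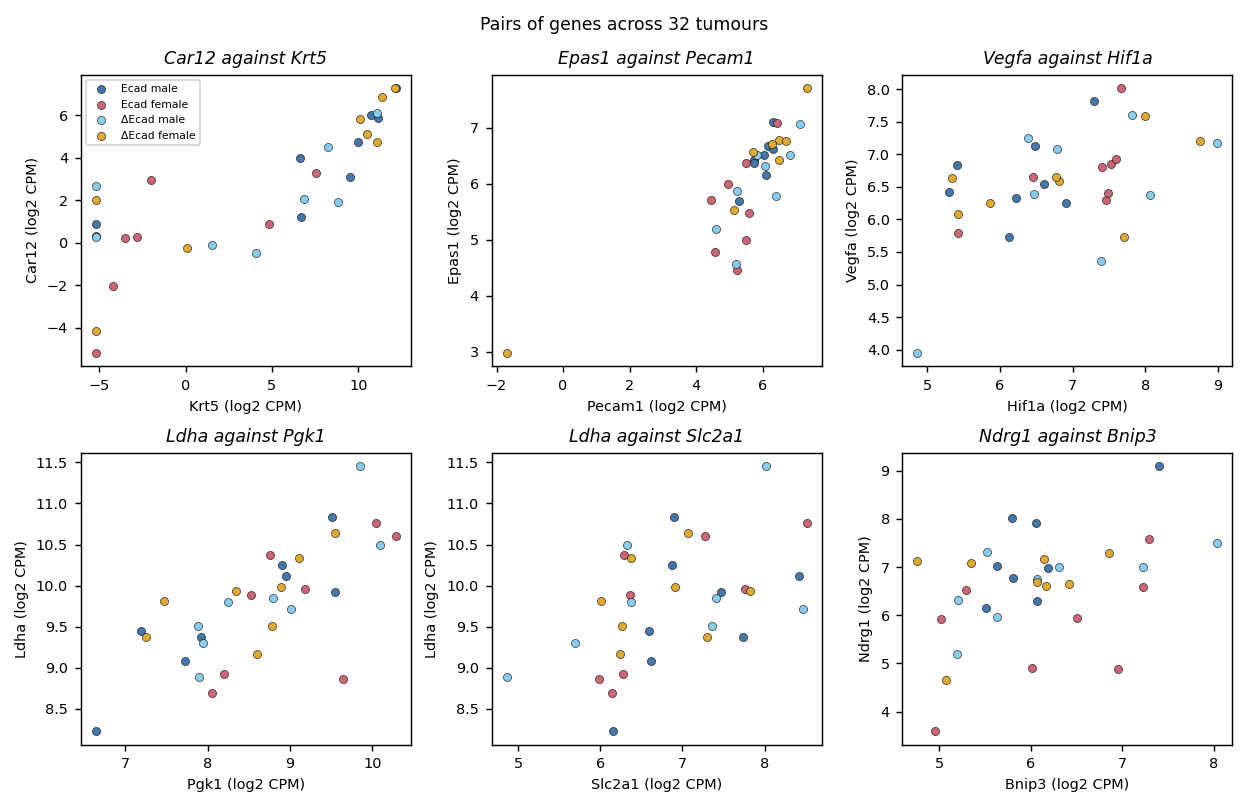
Pairs of genes across the 32 tumours, in log2 CPM (counts scaled to the total of each tumour, with a prior count of 1), coloured by group. Car12 rises with Krt5 and Epas1 with Pecam1, while Ndrg1 against Bnip3 is loose (r = 0.432). Tumours without Krt5 counts lie at the left edge, with Car12 from -5.19 to 2.65. For Pecam1, ΔEcad female 3 (-1.70) lies far from all others.

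Relations among the genes themselves were tested for pairs taken from textbook roles. Pgk1 and Ldha correlated at r = 0.730 and rho = 0.716 (permutation p of 1e-05 each, adjusted p 3.33e-05), with r of 0.893 for Ecad males, 0.633 for Ecad females, 0.860 for ΔEcad males and 0.604 for ΔEcad females. Slc2a1 and Ldha correlated at r = 0.501 (permutation p 0.00323, adjusted p 0.00724) and rho = 0.549 (adjusted p 0.00272), with 0.212 to 0.717 within groups. Hif1a and Vegfa correlated at r = 0.494 (permutation p 0.00362, adjusted p 0.00724) and rho = 0.427 (adjusted p 0.0319), with 0.399 to 0.636 within groups and 0.465 without the 2 farthest tumours. For Epas1 and Vegfa no correlation was detected (r = 0.029, rho = -0.037, permutation p 0.868 and 0.841), nor for Car9 and Vegfa (r = 0.115, rho = 0.097, permutation p 0.531 and 0.598). Egln3 and Vegfa had r = 0.345 and rho = 0.226, with adjusted permutation p of 0.0747 and 0.266. Bnip3 and Ndrg1 had r = 0.432 (adjusted permutation p 0.0231) and rho = 0.383 (adjusted p 0.0528), and r fell to 0.304 without the 2 farthest tumours.

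Many of the 36 genes varied together between tumours. After the group means were removed, the median Pearson r over their 630 pairs was 0.242, beside 0.003 over all pairs of the 17717 genes. It exceeded 0.5 in 139 pairs (22.1%), beside 4.69% of all pairs, and lay below -0.5 in none. These values describe 32 tumours that share library composition, depth and cell content, and carry no test. Glycolytic enzymes were the tightest block, with a median r of 0.419 over 105 pairs, against 0.238 over 210 pairs of the other genes and 0.194 over 315 pairs across the blocks. Pkm and Ldha were the closest pair (r = 0.890), followed by Gapdh and Pgam1 (0.821), Hk1 and Gpi1 (0.792), Pgk1 and Pkm (0.791) and Tpi1 and Pkm (0.790). Outside the enzymes, Pdk1 went with Bnip3 (0.759) and Mxi1 (0.727), and Ero1l with Pgk1 (0.740). Hk1 had r = -0.126 with Hk2, and Slc2a1 went with Hk2 (0.712) but not with Hk1 (0.042).

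**Figure D4:**
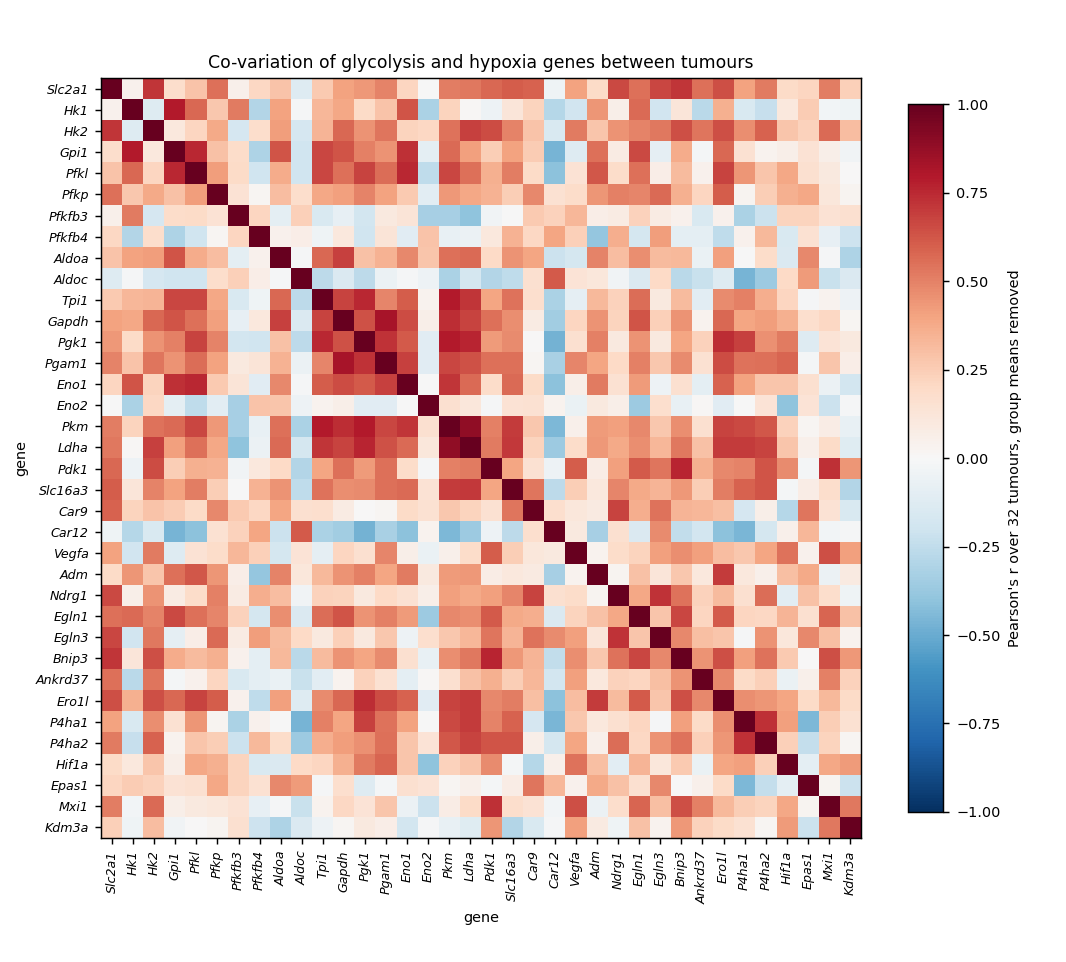
Pearson's r for every pair of the 36 genes over 32 tumours with group means removed, from blue (-1) to red (1). The red block of glycolytic enzymes around Pgk1, Pkm and Ldha stands out, and Car12 has a negative r with 24 of the other 35 genes.

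Car12 and Aldoc had the lowest median r with the other genes, -0.179 and -0.130, and Pgam1, Ero1l and Pkm the highest, 0.474, 0.469 and 0.465. The lowest r values of all were those of Car12 with Pgk1 (-0.469) and Gpi1 (-0.465). Eno2 had a median r of -0.004. The spread of single genes within groups was close to that of genes in general. The median standard deviation within groups was 0.921 on the log2 scale for the 36, beside 0.863 over all genes, and 14 of the 36 lay below the latter. Among genes with a median over 100 TPM, it was 0.761 for 13 of the 36 and 0.624 for all 1314. Car12 had the largest, 2.90 (96.9th percentile), and Mxi1 the smallest, 0.54 (21.2nd percentile).

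In 9 pairs, related genes were compared as the share of 1 gene in the summed TPM of the pair, which does not depend on scaling between tumours. No share passed among 45 permutation tests (smallest adjusted p 0.0909), and 13 had an unadjusted p under 0.05. The share of Epas1 in Hif1a and Epas1 was 55.0% ± 8.64 for Ecad males, 30.4% ± 18.8 for Ecad females, 35.5% ± 17.4 for ΔEcad males and 47.2% ± 24.4 for ΔEcad females (SD, 8 tumours per group). Ecad females and males differed by -24.6 percentage points (two-sided exact permutation p 0.00637, adjusted p 0.0909), and ΔEcad and Ecad males by -19.5 points (exact permutation p 0.0152, adjusted p 0.103). All 8 Ecad males lay between 43.4% and 72.0%, and 2 Ecad females reached into that range. The interaction was 36.3 points (permutation p 0.0093, adjusted p 0.0909).

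P4ha2 made up 16.5% ± 5.12 of P4ha1 and P4ha2 in Ecad males and 10.04% ± 4.00 in ΔEcad males, a difference of -6.43 points (SD, n = 8, exact permutation p 0.00979, adjusted p 0.0909). In females it made up 11.1% ± 6.13 in Ecad and 16.8% ± 7.16 in ΔEcad tumours (exact permutation p 0.107, n = 8), and the interaction was 12.2 points (permutation p 0.00478, adjusted p 0.0909). The share of Pfkfb4 in Pfkfb3 and Pfkfb4 was 9.49% ± 6.88 in Ecad females and 25.6% ± 14.2 in Ecad males (exact permutation p 0.0101, adjusted p 0.0909, n = 8). Egln3 had 16.1% ± 11.99 of Egln1 and Egln3 in Ecad females and 36.6% ± 16.7 in Ecad males (exact permutation p 0.0162, adjusted p 0.103, n = 8). The share of Car12 in Car9 and Car12 was 61.8% ± 36.4 in ΔEcad and 20.4% ± 24.2 in Ecad females (exact permutation p 0.0205, adjusted p 0.103, n = 8). Hk2, Pfkp, Aldoc and Eno2 shares had mean values of 18.3%, 31.2%, 0.986% and 4.04% over all tumours, and none had an unadjusted p under 0.05.

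**Figure D5:**
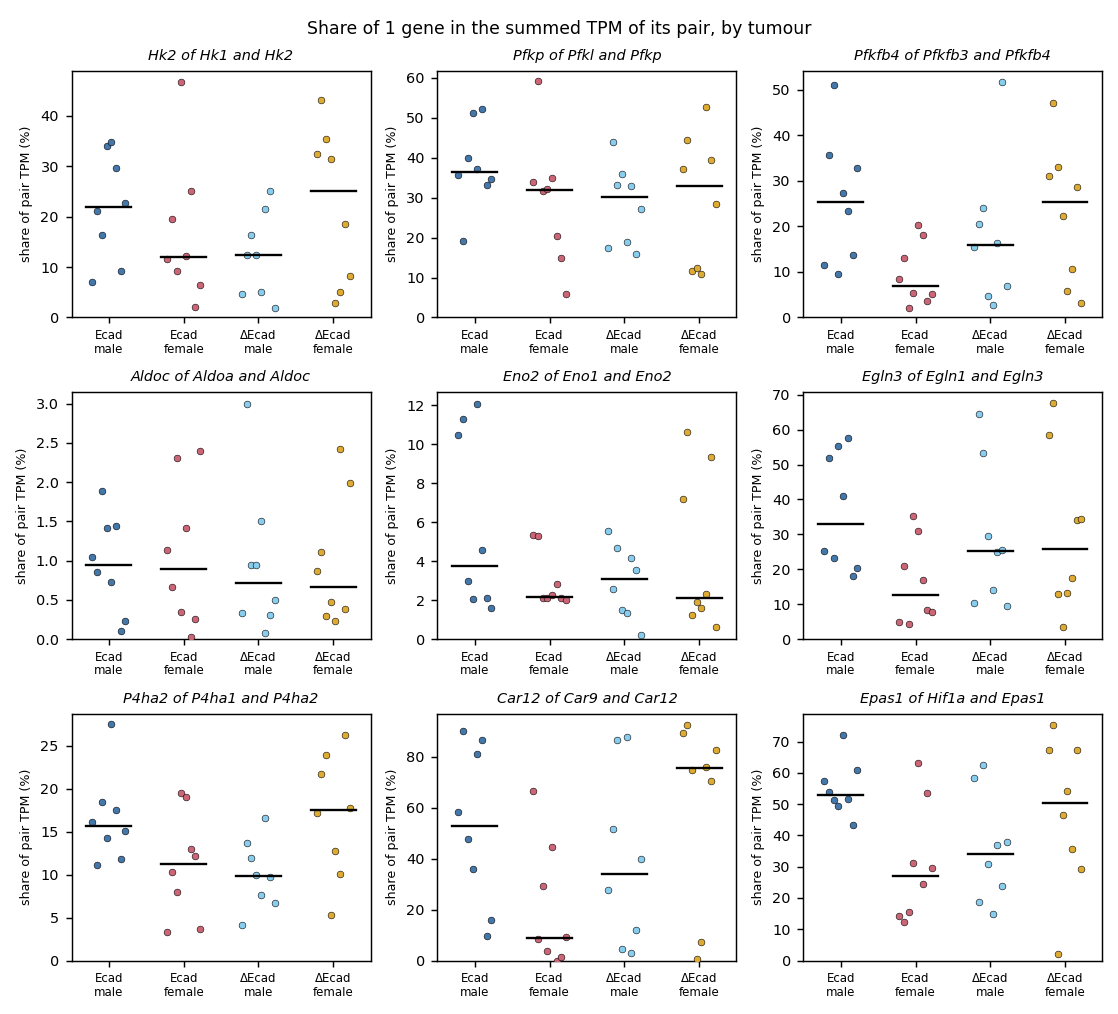
Share of 1 gene in the summed TPM of its pair (percent, each dot 1 tumour, bar the median of 8) for 9 pairs. Ecad males form the narrowest group for Epas1, between 43.4% and 72.0%, and the other groups spread widely.

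Other genes of the pathway were followed in 5 lists. Of 34 tested among 35 further HIF targets, 1 was called, in the female genotype comparison, where 1.20% of all genes were. This gene, Tmem45a, which encodes a transmembrane protein, was 3.54 higher in ΔEcad than Ecad females (SE 0.87, edgeR adjusted p 0.0434). It had a median of 4.39 TPM in Ecad females (0.63 to 11.6 TPM) and 39.2 TPM in ΔEcad females (0.51 to 155.4 TPM), and in Ecad males, ΔEcad males and ΔEcad females the tumour with the most Tmem45a was the one with the most keratinocyte markers. Tmem45a was no longer called with keratinocyte and melanocytic scores as covariates, and none of the list genes was called in 15 of 32 fits that left out 1 tumour. The median of the list was 0.07, beside -0.02 over all genes. Stc2, a secreted stress glycoprotein, had the next smallest p, with -3.23 between Ecad sexes (SE 0.80, adjusted p 0.0869).

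No gene was called among the 16 measured HIF regulators, 22 of 27 other glycolytic genes that passed the filter, 8 genes of the pentose phosphate pathway or 30 of pyruvate entry and the citric acid cycle. At most 1.20% of all genes tested were called in any of the 5 comparisons. The smallest p among the regulators was for Vhl, the ubiquitin ligase subunit that removes HIF, with an interaction of -1.45 (SE 0.43, edgeR adjusted p 0.0690). Arnt2, a partner of the HIF subunits, was 1.31 higher in Ecad females than Ecad males (SE 0.47, adjusted p 0.163). Among the other glycolytic genes, the smallest p was for the muscle enolase Eno3 (interaction 4.55, SE 1.24, edgeR adjusted p 0.0587). The 8 skeletal muscle markers had a median interaction of 5.4, and the part of muscle in the Eno3 value was not tested. Rpe and Pgls of the pentose phosphate pathway had smallest adjusted p values of 0.204 and 0.567. Pdk4, a kinase that blocks pyruvate entry, was 2.76 higher in ΔEcad females than ΔEcad males (SE 0.97, adjusted p 0.484), and the succinate dehydrogenase subunit Sdhd had an interaction of -1.18 (SE 0.42, adjusted p 0.125). In Ecad females against males, 28 of the 30 genes of pyruvate entry and the citric acid cycle had positive values. Their median was 0.27 beside 0.05 over all genes, and 3 had an unadjusted p under 0.05, beside 16.0% of all genes. Of the 30, 24 were positive between male genotypes and 10 between ΔEcad sexes. Between ΔEcad and Ecad females 8 were positive and 22 negative (median -0.15, beside -0.02 over all genes). In the interaction 4 were positive and 26 negative (median -0.41, beside -0.16).

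Counts of several abundant genes are uncertain because other loci share their sequence. Of the 50-base words of its transcripts, Pgk1 shares 53.9% with other genes, Bnip3 47.2%, Pgam1 36.2%, Eno1 26.0%, Pkm 25.8% and Gapdh 25.1%, the last with 213 annotated pseudogenes. Ankrd37 (17.0%) and Gpi1 (15.8%) follow. The locus sharing most words had a median of 3 counts for Pgk1, 13 for Pgam1, 21 for Eno1 and 1 for Gapdh. Reads were paired and 100 bases long, so a shared 50-base word need not make a read ambiguous. How the counting treated such reads was not given in the sources used here. Pkm overlaps Gm49759 on the same strand and shares 12.1% of its words with it, and Gm49759 had a median of 1373 counts. Strand alone cannot tell reads from these shared words apart. Pfkp overlaps Pitrm1 on the other strand, with 5.10% of its words shared. Other genes on the same strand also lie over Slc2a1, Pfkfb3, Hif1a and Epas1, and genes on the other strand alone over Hk1, Hk2, Gpi1, Aldoa, Tpi1, Gapdh, Car9, Adm, Ndrg1, Bnip3, Ankrd37 and Mxi1.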

How the data were processed

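RNA of 32 primary melanomas was sequenced by the authors as stranded, polyadenylated, paired-end libraries from RNA of integrity above their threshold. Reads were mapped with STAR to mm10 (GRCm38.p5, GENCODE M13), and FastQC 0.11.5 is named in the submitters' processing notes. The authors deposited raw counts per gene and TPM. Their methods mention ComBat batch correction where needed and do not name the libraries it was used on. All deposited counts were whole, and TPM equalled counts rescaled by 1 length per gene within 0.0685% (996 genes whose count was above 2000 throughout). Whether counting used the strand was not given in the sources used here. STAR also made the count matrices. The authors used DESeq2, with edgeR to keep expressed genes.

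GENCODE M21 (GRCm38) supplied gene symbols and positions and named 50376 of 50600 identifiers. The 36 genes, the lists and the tests were chosen with earlier results of these data known. Groups came from the labels. The labels number tumours and do not say that each came from another mouse, so p-values measure the spread between these tumours.

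Counts were tested with edgeR 4.0.16 (two-sided quasi-likelihood, robust, TMM, filterByExpr) in 1 model of all tumours, with 17717 genes passing and a common dispersion of 0.624. A gene was called where its p, adjusted by Benjamini and Hochberg, was under 0.05 and its log2 fold change exceeded 1 in size. The precision of each fold change is given by its SE, from the spread between tumours. Correlations used log2 CPM with a prior count of 1. Shares were compared by exact permutation over 12870 splits, interactions and correlations by 100000 permutations, all two-sided, and adjusted over 45 and 10 tests. Scripts were tested on simulated data. The genes described in full were, for each comparison, the 3 of smallest p in each direction and any called gene, and from each list its called genes or otherwise the 2 of smallest p. Stc2, and Egln3 between Ecad sexes, fall outside this rule and were chosen after their values were seen. One gene that the rule names is not reported here. Alternatives were DESeq2 1.42.0, limma 3.58.1 (voom), other size factors, filters, thresholds and covariates, the tumour number as a block, and each tumour left out. Applying them to the lists of other genes was chosen after seeing the data. Python 3.11.15 with pandas 2.3.3, numpy 2.4.6 and matplotlib 3.10.9 was used beside R 4.3.3.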

Additional observations from a re-analysis of the deposited data

Results flagged for a closer look

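In 12 of 180 groups of 8 values (the 36 genes in log2 CPM and the 9 shares, in each of 4 groups), the highest or lowest tumour lay apart from the rest by more than Dixon's 95% limit for 8 samples allows. Chance gives about 1 in 20 such groups. ΔEcad female 3 held 3 of them, with P4ha1 at 9.11 and P4ha2 at 8.03 log2 CPM (high) and Epas1 at 2.98 (low), and it also had 0 TPM of red blood cell genes and the lowest endothelial markers. In ΔEcad male 7, the tumour nearly without melanocytic markers, Adm was low at 3.28 log2 CPM and the share of Pfkfb4 in Pfkfb3 and Pfkfb4 was high at 51.68%. Ecad female 3 was low for Eno2 (4.22 log2 CPM) and Pfkfb4 (0.88). ΔEcad male 1, with 26.6% of its TPM in ribosomal protein genes, was low for Pgam1 (2.12 log2 CPM). The remaining ones were Gapdh in Ecad female 6 (12.93 log2 CPM, high), Bnip3 in Ecad male 4 (7.41, high), Ndrg1 in ΔEcad female 4 (4.66, low) and the share of P4ha2 in P4ha1 and P4ha2 in Ecad male 5 (27.49%, high). The part of cell content or library quality in these values was not tested.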

How the results depend on the processing

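The number of the 36 genes called stayed at 0 in every comparison under the other size factors, filters, covariates, estimation without robustness, no fold limit, voom, the fit of only the tumours compared and the fit without 3 doubtful tumours (ΔEcad male 2, ΔEcad male 7 and ΔEcad female 3). DESeq2 called 1 in females (Car12), 2 between Ecad sexes (Car12 and Ndrg1) and 1 in the interaction (Car12). An adjusted p under 0.1 called 1 in females and 1 in the interaction, Car12 in both. Leaving out 1 tumour gave 0 to 1 in females (Car12, without Ecad female 5, ΔEcad female 4 or ΔEcad female 5) and 0 to 1 in the interaction (Car12, without Ecad male 7, Ecad female 5, ΔEcad male 3, ΔEcad female 3, ΔEcad female 4 or ΔEcad female 5), and 0 in the other comparisons. The cause was not tested. Over all genes the count in females, 213, was 1 to 695 when 1 tumour was left out, 322 and 352 with other size factors, 555 with no filter, 87 with the stricter filter, 1281 in DESeq2, 1 in voom, 1 with only the compared tumours, 1 with the replicate block and 569 without the 3 doubtful tumours.

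The 1 called gene of the other lists, Tmem45a in females, became 0 with the stricter filter, voom, only the tumours compared, the replicate block or either set of cell covariates, 2 with RLE or upper-quartile size factors or the proliferation covariate, and 17 in DESeq2, and it was 0 to 8 when 1 tumour was left out. No isoform share passed under any alternative, with 0 under the replicate block. Relations passing by both coefficients numbered 5, and 5 to 6 under the alternatives. The tumour number did not pair the tumours, since 17 of 48 pairs with the same number had a correlation of deviations over 0.1 (range -0.547 to 0.425) and 4 of 32 tumours were closest to one of their own number. As a replicate block it called 0 of the 36 in every comparison. Of 180 uncalled log2 fold changes of the 36 genes, 44 changed sign with the keratinocyte and melanocytic covariates, 22 with the replicate block, 17 with the stromal covariates, 16 in voom and 10 or fewer under each other setting counted. Sign changes were not counted for estimation without robustness or for the fits that left out tumours.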
